A study of Homo sapiens with 6 samples.

Results

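The genes described here are the zinc transporters and metallothioneins, with the zinc-sensing factor MTF1, in samples titled Capan-1, a human pancreatic carcinoma line. They were chosen by symbol: every gene on the array annotated as SLC30A or SLC39A with a number, as MT1 or MT2 with 1 letter, or as MTF1. The rule found 32 of the 19775 genes with a probe set of their own, 10 of the SLC30A family, 14 of the SLC39A family, 7 metallothioneins and MTF1, with 71 probe sets in all. No probe set was annotated to a member together with another gene. There were 3 samples labelled p16, of cells transfected with a full-length p16 (p16INK4a) cDNA driven by the CMV promoter, and they were set against 3 samples of mock-transfected cells. The samples carry the numbers V1, V2 and V3 in each group, whose meaning the labels leave out. All were grown with 15% fetal calf serum. The protocol gives selection of transfected cells with hygromycin at 0.1 mg/ml and G418 at 1 mg/ml, and the labels do not say whether a sample was a clone or a pool. They also name no separate cultures within a group, and the p-values here rest on a spread between samples that may be only technical.

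Cells hold almost all of their zinc bound to proteins. Proteins of the SLC30A family, the ZnT transporters, carry zinc out of the cytosol, across the plasma membrane or into vesicles and the Golgi, and those of the SLC39A family, the ZIP transporters, carry it into the cytosol from outside or from organelles. Metallothioneins are small cysteine-rich proteins that bind zinc, copper and cadmium, and MTF1 is the transcription factor that senses cytosolic zinc and turns on metallothionein genes and SLC30A1. Pancreatic tissue handles much zinc, in the granules of beta cells and in the secretions of acinar cells.

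Each sample was hybridised to 1 array, and every value is a log2 expression level of a probe set as the authors normalized it. Array medians lay between 3.11 and 3.18, and 42.8% to 43.5% of probe sets reached a log2 level of 4, under which values pile up at a floor. A probe set was tested if at least 3 of the 6 samples reached 4, and a gene was called higher or lower at a limma Benjamini-Hochberg adjusted p under 0.05, on the brightest of its tested probe sets (by the mean of all samples). CDKN2A, which encodes p16, averaged 12.60 ± 0.45 in p16 samples and 6.01 ± 0.41 in mock samples (SD, n = 3 each). The genes MTAP, CDKN2B and KLHL9 lie near CDKN2A on its chromosome and are not part of a p16 cDNA. They lay under 4 in every mock sample and were also higher in p16 samples, each by at least 27.3-fold. The groups therefore differ in more than the transfected gene, and which of the differences goes with p16 itself cannot be told apart. The V1 samples of both groups stood apart from V2 and V3, so calls of these zinc genes that differ without V1 or with the number as a block are given with those values.

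Of the 32 genes, 25 were tested, and 2 were called higher (SLC39A8 and SLC39A14) and 4 lower (SLC30A1, SLC30A4, SLC39A11 and MT1E). That is 24% of those tested, against 42.0% of all 11658 genes tested, where 19.5% were called higher and 22.5% lower. The share called among these genes was below that of the array at large in this fit, and above it with the number as a block. With the number as a block 6 were called higher and 13 lower, 76% against 67.9% of all genes (32.4% higher and 35.5% lower). Without V1 of both groups 5 were higher and 11 lower, against 58.9% of all genes (28.2% higher and 30.6% lower). Without mock V1 alone 4 were higher and 8 lower, and without p16 V2 or p16 V3 1 was higher. The share of all genes called was not counted in fits that left out 1 sample. Whether those moves are particular to these genes can therefore not be told. The groups did not overlap in 10 of the 25 (40%, against 56.4% of all genes tested), with p16 above mock in 4 (27.3% of all genes) and below in 6 (29.1%). Of the 47 tested probe sets, 5 were called higher and 8 lower, against 37.2% of all probe sets (17.5% higher and 19.7% lower), and with the block 12 and 20, against 63.5% (30.9% higher and 32.6% lower). The median change was -0.41, beside -0.03 over all genes tested. The 24 probe sets that were not tested lay between 1.73 and 3.35, and 7 genes had no other probe set.

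**Figure D1:**
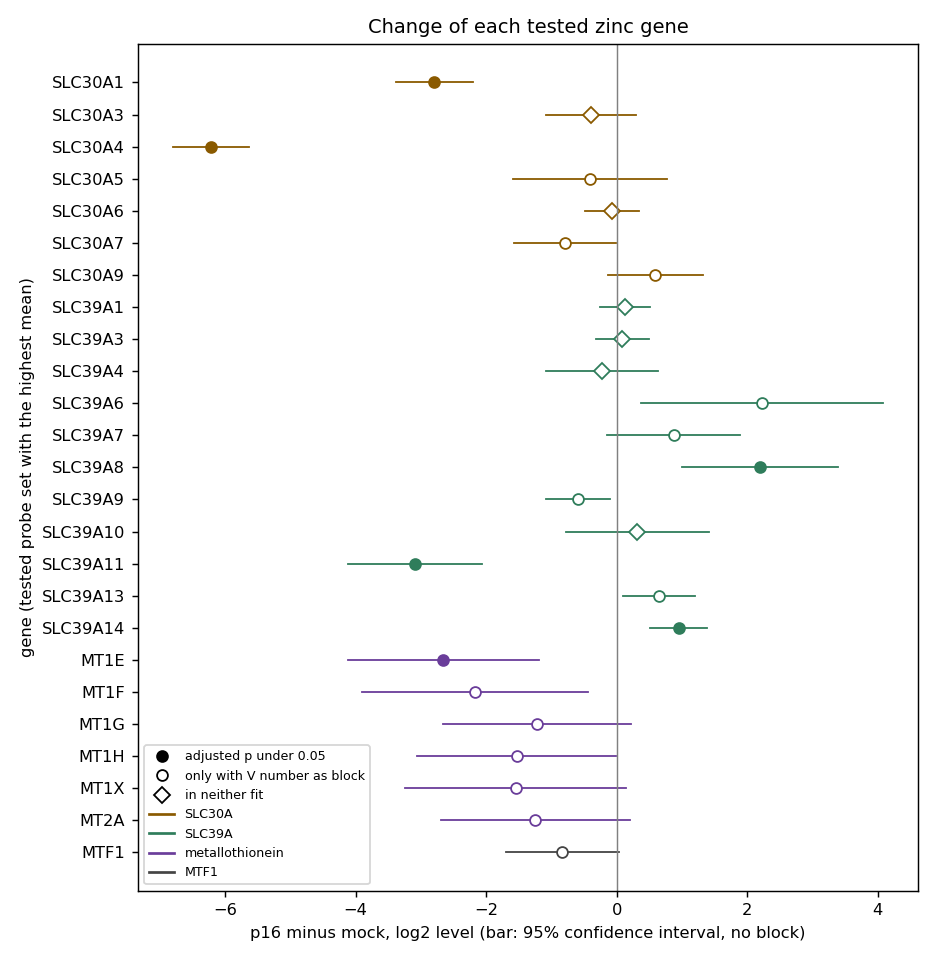
Difference between p16 and mock samples (x axis, log2) for the 25 tested genes (y axis), with 95% confidence intervals of the fit without a block (n = 3 each). Filled points passed that fit, open circles passed only with the V number as a block, and diamonds passed neither. SLC30A4 lies farthest to the left at -6.22, and the 6 tested MT1 and MT2A genes lie left of 0. The p16 values of SLC30A4 lay at the floor, so its point and interval do not measure the size of its fall, which was at least 31.6-fold.

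Among the exporters, SLC30A4 and SLC30A1 were lower in every p16 sample. SLC30A4 (ZnT4), which loads zinc into endosomal and secretory vesicles, read 2.77, 2.76 and 2.76 in the p16 samples V1, V2 and V3, against 9.14, 8.53 and 9.27 in the mock samples. All p16 samples therefore lay at the floor, and the gene was at least 31.6-fold lower (limma adjusted p = 2.3e-05). It passed the filter through its mock values alone, and its other 2 probe sets lay under 4 in all samples.

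SLC30A1 (ZnT1) is the plasma membrane exporter that lowers cytosolic zinc, and its gene is a known MTF1 target. Its probe set 212907_at read 6.95, 7.53 and 7.52 in p16 samples and 10.22, 9.86 and 10.30 in mock samples. The groups were clearly apart, by more than 2 log2 units in every same-numbered pair, and the mean difference was -2.79 (SE 0.24, a 6.94-fold fall, adjusted p = 0.00046). A second probe set, 228181_at, fell by 1.20 (adjusted p = 0.041), a call that ended when any of 4 single samples was left out, with quantile normalization and without the low value filter. The third lay under 4 throughout.

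The exporters of the early secretory pathway had smaller differences. SLC30A5 and SLC30A6 form a joint transporter, and with SLC30A7 they supply zinc to enzymes made in the Golgi. SLC30A7 read 9.70, 10.05 and 10.32 in p16 samples and 10.26, 10.93 and 11.25 in mock samples, lower in each same-numbered pair although p16 V3 lay just above mock V1 (a difference of -0.79, SE 0.32, adjusted p = 0.10, 0.0065 with the block and 0.021 without V1 of both groups). A second SLC30A7 probe set, 226601_at, was called, at -0.75 (adjusted p = 0.017), and did not overlap between groups. That call ended when any of 4 single samples was left out (adjusted p = 0.050 to 0.065), and the remaining, dim probe set differed by 0.06 (adjusted p = 0.88).

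SLC30A5 was less uniform. Its first probe set read 11.53, 10.41 and 10.44 in p16 samples and 12.02, 10.83 and 10.77 in mock samples, a difference of -0.41 (adjusted p = 0.55, and 0.029 with the block). Of its 5 tested probe sets, only 220181_x_at was called without the block, and it was higher in p16 samples, by 0.73 (adjusted p = 0.047). That call was lost in 5 of the 6 fits that left out 1 sample, and 2 other probe sets were called lower with the block, so the direction for SLC30A5 depends on the probe set. SLC30A6 differed by -0.08, with a 95% interval of -0.49 to 0.34 (adjusted p = 0.77), and by 0.16 on its other tested probe set (adjusted p = 0.45).

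SLC30A9, a mitochondrial zinc transporter, was the exporter family's only tested gene with a positive difference. It read 12.06, 11.33 and 11.46 in p16 samples and 11.44, 10.72 and 10.91 in mock samples. Each same-numbered pair differed by 0.55 to 0.62, and the gene was called with the block and without V1 of both groups (a difference of 0.59, adjusted p = 0.17 in the fit without a block, 0.0086 with it and 0.031 without V1). Its second probe set differed by 0.31 and was called in neither fit. SLC30A3, the transporter of synaptic vesicles, differed by -0.39 (adjusted p = 0.33). SLC30A2, SLC30A8, which fills the insulin granules of beta cells, and SLC30A10, a manganese exporter, lay between 1.98 and 2.37 in all samples and were not tested. Of 7 tested SLC30A genes 2 fell, where 22.5% of all genes did, and with the block 4 fell and 1 rose, where 35.5% and 32.4% of all genes did.

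**Figure D2:**
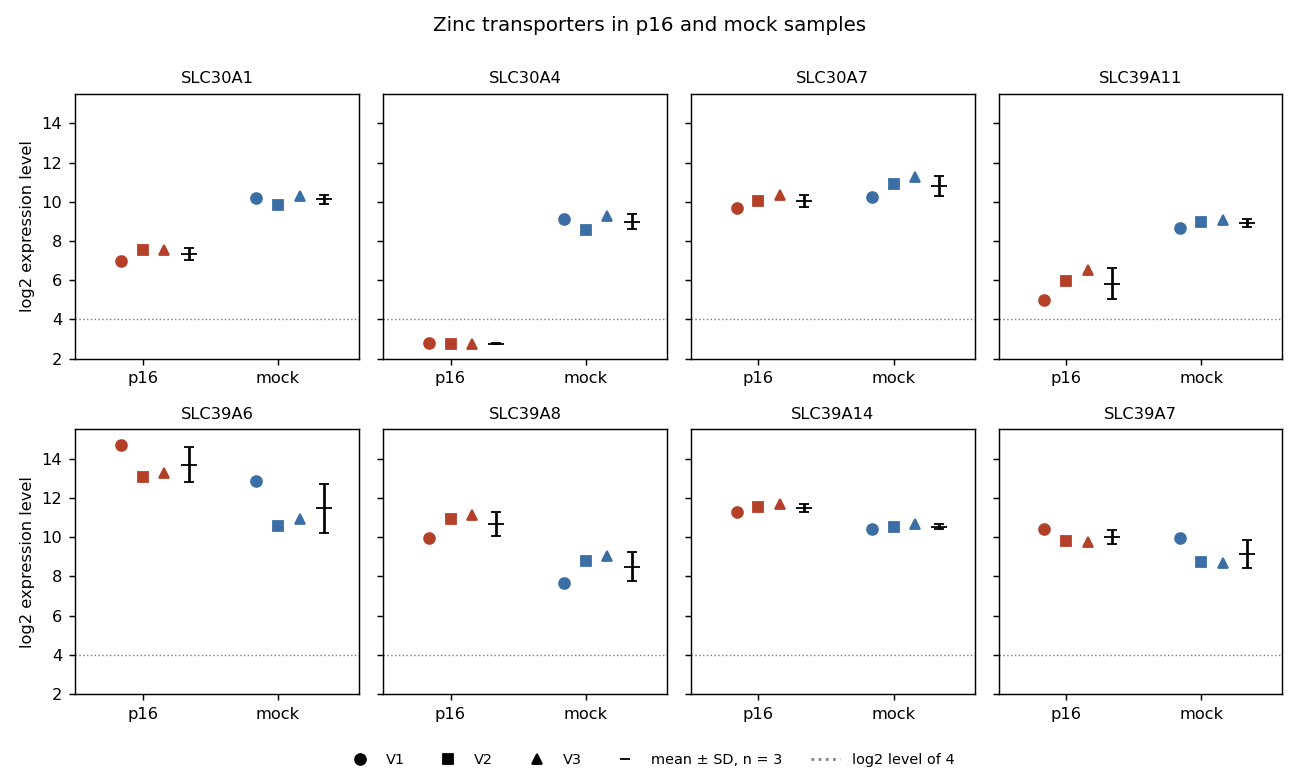
Log2 expression levels (y axis) of 8 zinc transporter genes in the 3 p16 and 3 mock samples, 1 symbol per V number, with mean ± SD to the right of each group and a dotted line at 4. SLC30A1, SLC30A4 and SLC39A11 lie lower in all p16 samples, and SLC39A6, SLC39A8 and SLC39A14 lie higher in all of them, while SLC30A7 and SLC39A7 overlap between groups.

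Among the importers, the closely related SLC39A8 and SLC39A14, which both carry manganese, iron and cadmium as well as zinc, rose. SLC39A8 (ZIP8) read 9.98, 10.95 and 11.14 in p16 samples and 7.66, 8.78 and 9.05 in mock samples. Every p16 sample lay above every mock sample, and the difference of 2.19 (SE 0.48) was 4.58-fold (adjusted p = 0.016). Without the low value filter the adjusted p of that probe set was 0.063, and it also ended above 0.05 without p16 V2 (0.063) or p16 V3 (0.062). A second probe set, 219869_s_at, read 8.21, 8.93 and 8.85 in p16 samples and 6.15, 6.16 and 6.23 in mock samples (a difference of 2.49, SE 0.24, adjusted p = 0.00068) and kept its call in every alternative run. The other 4 SLC39A8 probe sets lay under 4 in all samples.

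SLC39A14 (ZIP14), an importer that cytokines induce in liver, read 11.27, 11.55 and 11.67 in p16 samples and 10.44, 10.54 and 10.65 in mock samples. The groups did not overlap, and the gene was 1.93-fold higher in p16 samples (a difference of 0.95, SE 0.18, adjusted p = 0.0089). A dimmer probe set, 1555434_a_at, read 4.34, 7.03 and 6.02 in p16 samples and 4.73, 4.85 and 4.76 in mock samples. It was higher in p16 V2 and V3 and lower in p16 V1, and was not called (adjusted p = 0.29), though it was called without V1 of both groups (1.72, adjusted p = 0.025).

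SLC39A6 (ZIP6), a transporter of the LIV-1 group known as an estrogen-responsive gene in breast cancer, was higher in every p16 sample on all 4 of its probe sets. Probe set 202088_at, which stands for the gene, read 14.73, 13.09 and 13.26 in p16 samples and 12.89, 10.57 and 10.94 in mock samples. The groups did not overlap, but the V1 sample was the highest of each group, and the difference of 2.23 (SE 0.75, 4.68-fold) was not called without the block (adjusted p = 0.065) and was called with it (0.00076) and without V1 of both groups (0.0018). On 202089_s_at the values were 10.89, 11.17 and 11.08 in p16 samples and 9.30, 8.55 and 8.47 in mock samples, and this probe set was called in both fits (a difference of 2.28, adjusted p = 0.0016 without the block).

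On the remaining SLC39A6 probe sets V1 was the lowest sample of each group. On 1556551_s_at the p16 samples read 5.77, 8.94 and 8.49 and the mock samples 3.15, 5.19 and 5.56. On 1555460_a_at they read 6.34, 8.83 and 8.74 in p16 and 3.71, 5.60 and 5.92 in mock samples. Mock V1 lay under 4 on both, and the differences of 3.10 and 2.89 gave bounds of at least 7.03-fold and at least 6.94-fold higher (adjusted p = 0.065 and 0.052, 0.00085 and 0.00033 with the block, and 0.0016 and 0.00089 without V1 of both groups). The order of V1 against V2 and V3 thus depended on the probe set, whereas p16 lay above mock on all 4. SLC39A10, which pairs with SLC39A6 in the plasma membrane, read 13.48, 12.65 and 12.75 in p16 samples and 13.51, 12.10 and 12.33 in mock samples and differed by 0.31, with an interval of -0.78 to 1.41 (adjusted p = 0.63).

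**Figure D3:**
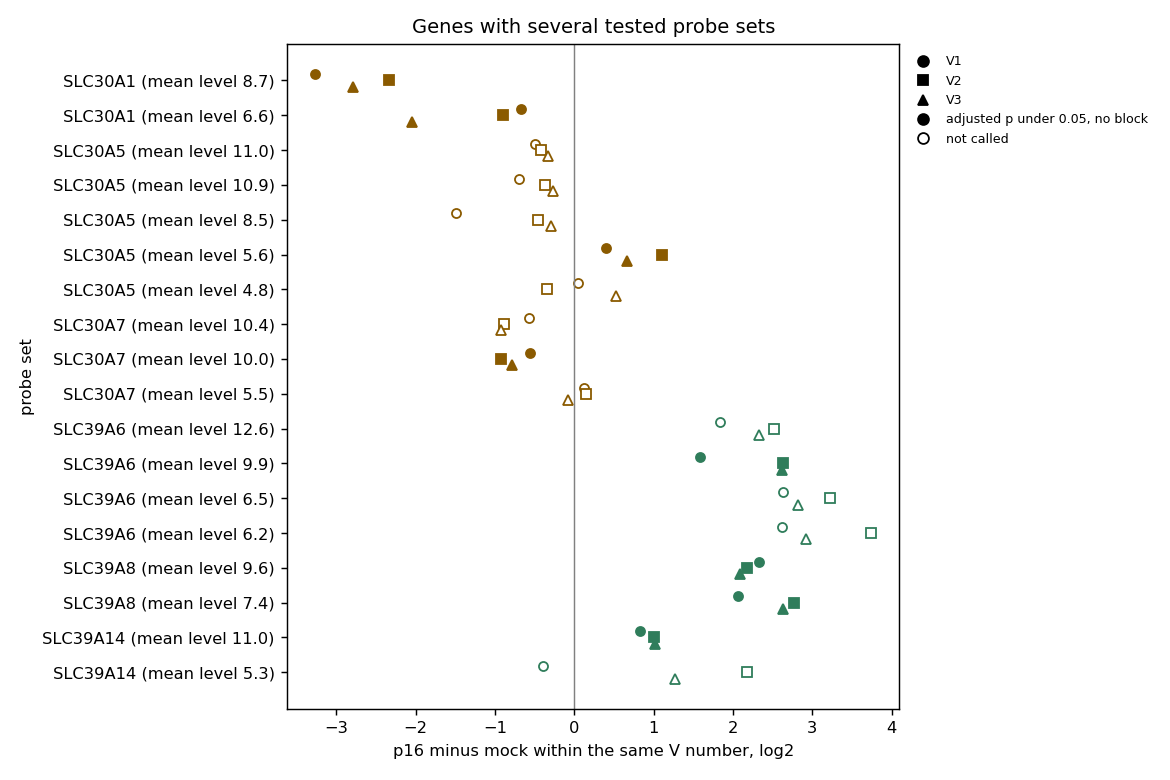
Difference between p16 and mock samples of the same V number (x axis, log2, 1 symbol per number) for each tested probe set (y axis, with its mean level over both groups) of 6 zinc transporter genes; filled symbols mark probe sets called without the block. All 12 differences of SLC39A6 lie right of 0, while SLC30A5 has probe sets on both sides.

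SLC39A11 (ZIP11), a divergent importer found in the Golgi and nucleus, was the only importer called lower without the block. It read 4.96, 5.94 and 6.53 in p16 samples and 8.68, 8.98 and 9.05 in mock samples. Every p16 sample lay at least 2 log2 units under every mock sample, and the gene fell by 3.09 (SE 0.42), an 8.51-fold difference (adjusted p = 0.0027). It has a single probe set, so no second reading was available.

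SLC39A7, SLC39A13 and SLC39A9 passed with the block but not without it. SLC39A7 (ZIP7), which releases zinc from the endoplasmic reticulum, read 10.44, 9.83 and 9.76 in p16 samples and 9.96, 8.73 and 8.70 in mock samples, higher in each same-numbered pair (0.88, adjusted p = 0.15, and 0.011 with the block). SLC39A13 (ZIP13), a transporter of the Golgi and vesicles whose loss causes a connective tissue disorder, read 9.69, 9.47 and 9.12 in p16 samples and 8.91, 8.91 and 8.51 in mock samples (0.65, adjusted p = 0.071, and 0.0080 with the block). SLC39A9 (ZIP9), of the Golgi, read 10.82, 10.68 and 10.59 in p16 samples and 11.42, 11.49 and 10.98 in mock samples (-0.60, adjusted p = 0.062, and 0.017 with the block). The groups of SLC39A13 and SLC39A9 did not overlap. Without V1 of both groups SLC39A7 passed (adjusted p = 0.0040), while SLC39A13 (0.095) and SLC39A9 (0.084) did not. The second probe sets of SLC39A13 and SLC39A9 differed by 0.67 and -0.85 (adjusted p = 0.11 and 0.48, and 0.032 and 0.011 with the block), and that of SLC39A9 passed without V1 of both groups (0.017).

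The plasma membrane importers SLC39A1, SLC39A3 and SLC39A4 were not called in either fit. SLC39A4 (ZIP4), the intestinal importer mutated in acrodermatitis enteropathica and studied in pancreatic cancer, read 8.78, 9.70 and 9.63 in p16 samples and 9.13, 9.96 and 9.70 in mock samples. The groups overlapped, and the difference was -0.23, with an interval of -1.09 to 0.63 (adjusted p = 0.66). The differences of SLC39A1 and SLC39A3 were 0.12 and 0.08, with intervals of -0.25 to 0.50 and -0.32 to 0.49, and a second SLC39A3 probe set differed by 0.29 (adjusted p = 0.37). SLC39A2, SLC39A5 and SLC39A12 lay between 1.84 and 2.55 in all samples and were not tested. Of 11 tested SLC39A genes 2 rose and 1 fell, where 19.5% and 22.5% of all genes did, and with the block 5 rose and 2 fell, where 32.4% and 35.5% did. The median change was 0.31, beside -0.03 over all genes.

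Every MT1 and MT2A probe set above the floor was lower in the p16 sample than in the mock sample of the same number. The 7 genes lie in the order MT2A, MT1E, MT1M, MT1F, MT1G, MT1H, MT1X along chromosome 16 in RefSeq, and 6 of them were tested, on 9 probe sets. All 27 same-numbered differences were below 0, with medians over the 9 probe sets of -1.56 for V1, -1.72 for V2 and -1.43 for V3. All 3 differences were below 0 in 6 of 6 of these genes, and in 5026 of all 11658 genes tested. Without the block 3 of the 9 probe sets were called lower, for MT1E, MT1F and MT1X, and with it all 9 were, with adjusted p of 0.0079 or lower, where 19.7% and 32.6% of all probe sets were called lower. By gene, MT1E alone was called without the block, 1 of 6, and with it 6 of 6, where 22.5% and 35.5% of all genes were called lower. Without V1 of both groups all 9 probe sets were called as well, with changes of -3.00 to -1.21.

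Those 9 probe sets do not give 9 separate readings. All carry the suffix _x_at, with which Affymetrix marks probe sets whose probes also match other transcripts, and the coding sequences of the MT1 and MT2A genes are close to each other. Which gene gave the signal can therefore not be told apart. The 2 MT1 probe sets without that mark, 1 for MT1G and 1 for MT1M, lay between 2.36 and 2.90 in all samples, while the x_at probe set of MT1G lay between 7.50 and 10.37. MT3, the metallothionein typical of brain, which the rule does not take in, has an unmarked probe set above 4 in all samples. It read 5.77, 5.70 and 5.74 in p16 samples and 5.66, 5.67 and 5.64 in mock samples, and was not called in either fit (a difference of 0.08, limma adjusted p = 0.70). Its SDs of 0.036 in p16 and 0.019 in mock samples were near those of the unmarked MT1G probe set at the floor (0.030 and 0.007). Whether MT3 was expressed was not tested. MT4 lay under 4 in all samples, and other MT1 genes were not analysed here.

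The values show the same layout from gene to gene. MT1E read 7.45, 8.29 and 8.30 in p16 samples and 9.42, 11.13 and 11.47 in mock samples (a difference of -2.66, SE 0.59, a 6.31-fold fall, adjusted p = 0.017). Its call ended without the low value filter (adjusted p = 0.068) and without mock V2, mock V3, p16 V1 or p16 V2 (adjusted p = 0.050 to 0.063). A second MT1E probe set, 216336_x_at, differed by -1.15 (adjusted p = 0.072, and 0.0079 with the block).

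MT1F and MT1X each had a probe set that passed and a probe set that did not. MT1F read 6.09, 6.97 and 7.02 in p16 samples and 8.10, 9.25 and 9.35 in mock samples on 213629_x_at (-2.21, adjusted p = 0.011), and its other probe set differed by -2.18 (adjusted p = 0.057). MT1X read 7.70, 8.57 and 8.60 in p16 samples and 10.01, 11.20 and 10.60 in mock samples on 204326_x_at (-2.31, SE 0.40, adjusted p = 0.0069). On its other probe set, 208581_x_at, it read 8.63, 10.39 and 10.25 in p16 samples and 10.19, 12.11 and 11.61 in mock samples (-1.55, SE 0.68, adjusted p = 0.13). The groups of the last probe set overlapped, since mock V1 lay below p16 V2 and V3.

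MT2A, the most widely used human metallothionein, read 10.98, 12.32 and 12.36 in p16 samples and 12.13, 13.80 and 13.47 in mock samples. Here too mock V1 lay below p16 V2 and V3, and the difference of -1.25 (SE 0.59) was not called without the block (adjusted p = 0.15) and was with it (SE 0.13, adjusted p = 0.0018). MT1H read 8.23, 9.71 and 9.71 in p16 samples and 9.71, 11.39 and 11.14 in mock samples, and MT1G read 7.50, 8.94 and 8.93 in p16 samples and 8.74, 10.37 and 9.92 in mock samples. Both overlapped at mock V1 and differed by -1.53 and -1.22 (adjusted p = 0.11 and 0.16, and 0.00075 and 0.0020 with the block). In all 9 probe sets V1 was the lowest sample of its group, by 0.50 to 1.93 under the mean of V2 and V3 in p16 samples and by 0.89 to 1.88 in mock samples.

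**Figure D4:**
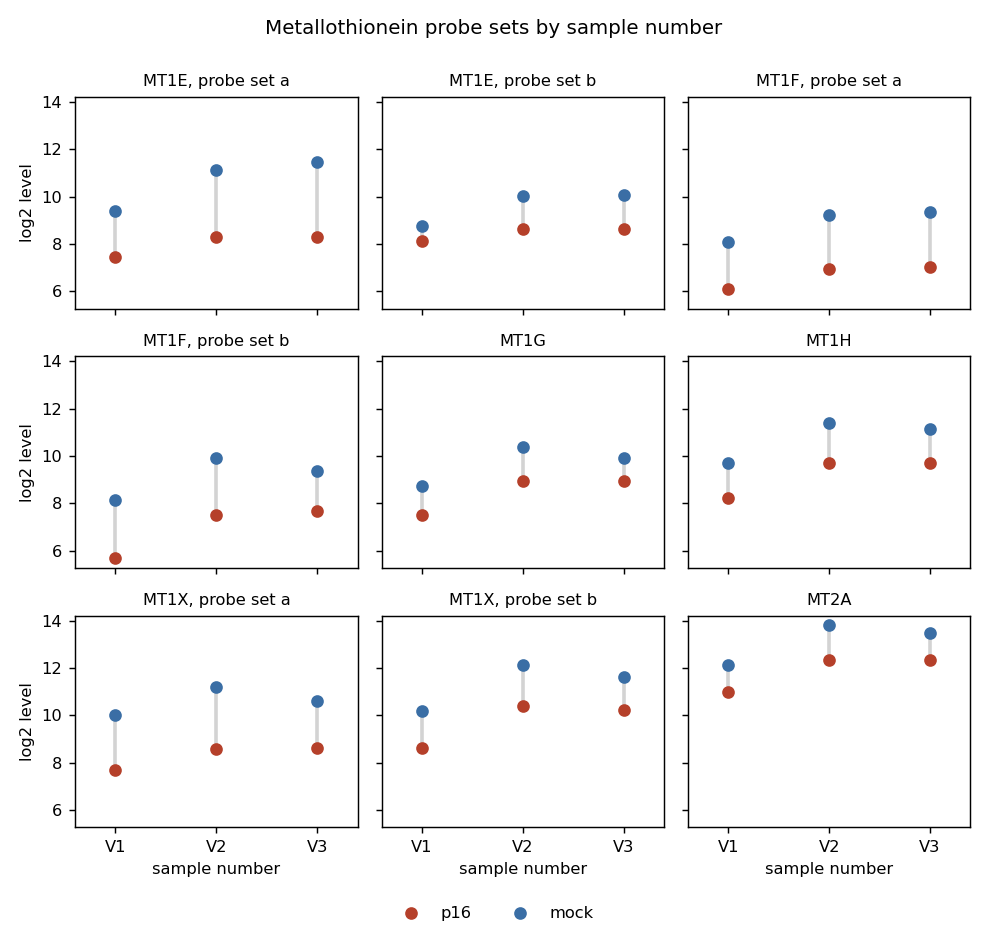
Log2 levels (y axis) of the 9 MT1 and MT2A probe sets above the floor in p16 and mock samples by V number (x axis), with a grey line joining samples of the same number. In each panel the p16 point lies below the mock point at V1, V2 and V3, and both groups are lowest at V1.

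MTF1 was not called without the block. It read 8.64, 7.91 and 7.89 in p16 samples and 9.50, 8.47 and 8.95 in mock samples on 227150_at (-0.83, SE 0.35, adjusted p = 0.12, 0.0076 with the block and 0.034 without V1 of both groups). Lower values thus occurred in each p16 sample of a pair, but p16 V1 lay above mock V2. Its other probe sets differed by -0.21 and -0.42 (adjusted p = 0.84 and 0.40) and were called in none of these fits. The calls of MTF1 in those fits therefore rest on 1 of 3 probe sets. The array measures RNA, and the activity of MTF1 was not measured.

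The core letters of metal response elements, the sites through which MTF1 acts, are shown for 3 metallothioneins and SLC30A1. The tested probe sets annotated to these genes were lower in p16 samples in every same-numbered pair. Which metallothionein gave the signal cannot be told apart. The genes were picked with those values seen, and a shared cause was not tested. The sequences are the 250 bases before the annotated start from RefSeq (GRCh38.p14), 5′ to 3′ on the strand of the gene, with matches in capitals.
MT2A, chr16:56608334-56608583, plus strand: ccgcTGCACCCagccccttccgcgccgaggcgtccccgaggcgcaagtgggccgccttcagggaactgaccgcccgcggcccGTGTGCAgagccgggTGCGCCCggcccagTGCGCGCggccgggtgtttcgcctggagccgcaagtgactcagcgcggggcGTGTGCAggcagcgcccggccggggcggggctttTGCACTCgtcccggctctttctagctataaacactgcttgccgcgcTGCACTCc
MT1X, chr16:56682220-56682469, plus strand: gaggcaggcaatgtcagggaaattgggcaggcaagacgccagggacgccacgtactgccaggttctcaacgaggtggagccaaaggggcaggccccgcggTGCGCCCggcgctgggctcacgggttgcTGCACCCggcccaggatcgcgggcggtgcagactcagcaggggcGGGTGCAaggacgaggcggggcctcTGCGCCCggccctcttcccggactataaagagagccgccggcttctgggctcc
MT1H, chr16:56669564-56669813, plus strand: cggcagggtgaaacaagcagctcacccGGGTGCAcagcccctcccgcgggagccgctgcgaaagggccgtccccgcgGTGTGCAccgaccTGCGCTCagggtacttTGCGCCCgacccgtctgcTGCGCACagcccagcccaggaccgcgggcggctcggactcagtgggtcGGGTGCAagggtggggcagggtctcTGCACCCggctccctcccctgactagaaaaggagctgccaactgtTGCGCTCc
SLC30A1, chr1:211579162-211579411, minus strand: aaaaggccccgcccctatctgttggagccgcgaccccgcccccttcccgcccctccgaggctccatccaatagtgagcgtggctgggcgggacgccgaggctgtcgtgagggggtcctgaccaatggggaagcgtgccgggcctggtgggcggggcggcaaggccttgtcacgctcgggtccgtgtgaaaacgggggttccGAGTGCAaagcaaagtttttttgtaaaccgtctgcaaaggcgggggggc
The letters searched were TGCACNC and TGCGCNC on both strands, counting overlapping matches separately. MT2A held 7 matches, MT1X 4, MT1H 8 and SLC30A1 1, and none of these matches overlapped. At least 1 match was present in 24.8% of 35116 windows of the same length in the RefSeq table and at least 4 in 0.37%. The table held 34 windows of 25 of the 32 genes, and 14 of these windows held at least 1 match. The 3 with at least 4 were those of MT2A, MT1X and MT1H, the only metallothioneins with a window. MT1E, MT1F, MT1G, MT1M, SLC30A8, SLC39A4 and SLC39A14 had no window there, so their matches were not counted. SLC30A2, which lay under 4 in all samples, held 3. SLC30A4, which fell, and SLC39A6 each held 1, and SLC39A11 and MTF1 held none. A match of letters is not a measured site, and no factor binding was measured.

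In a list of copper, iron, magnesium and manganese transport genes, 3 of 27 tested rose and 7 fell, where 19.5% and 22.5% of all genes did, with a median change of -0.04. Among the genes called without the block, the largest changes were in the magnesium-linked CNNM1 (4.02, 3.95 and 3.98 in p16 and 5.47, 9.17 and 8.76 in mock samples, at least 13.9-fold lower), the iron reductase CYBRD1 (-2.12), the copper exporter ATP7A (-1.72), the magnesium transporter SLC41A1 (1.58), CCS, the copper chaperone of superoxide dismutase (-1.57), and CNNM3 (-1.49), whose call ended without V1 of both groups (adjusted p = 0.066). With the block 5 rose and 12 fell, where 32.4% and 35.5% of all genes did. The copper chaperone ATOX1 differed by 1.52 and was called with the block and without V1 of both groups (adjusted p = 0.069 without the block, 0.0012 with it and 0.0067 without V1).

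In a list of other zinc handling and zinc-responsive genes, 2 of 13 tested were higher and 3 lower, where 19.5% and 22.5% of all genes were. With the block 3 were higher and 6 lower, where 32.4% and 35.5% of all genes were. Of the called genes, TMEM163, ZNF658 and GPR39 passed the filter only through the group where they were high. SLC7A11, the cystine importer, rose by 3.80 (11.29 ± 0.53 in p16 and 7.50 ± 0.99 in mock samples, adjusted p = 0.0038), and GPR39, a receptor that responds to extracellular zinc, was at least 6.14-fold higher. TMEM163, a vesicular zinc exporter outside the SLC30A family, was at least 13.7-fold lower, ZNF658, a zinc-finger factor tied to zinc-dependent repression, at least 6.22-fold lower, and NFE2L2, which drives antioxidant genes, differed by -0.80 (adjusted p = 0.019). HMOX1, a stress-induced enzyme of heme breakdown, and SELENOH, an MTF1 target in mouse, differed by -0.67 and -0.14 (adjusted p = 0.058 and 0.61), and HMOX1 was called with the block (0.0060) and without V1 of both groups (0.018). The median change of the list was -0.20.

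Zinc enzymes, most of them on the cell surface, had 1 higher and 4 lower of 7 tested, where 19.5% and 22.5% of all genes were. CA2 and ALPG passed the filter only through their mock values. The carbonic anhydrase CA2, a cytosolic enzyme, was at least 5.40-fold lower and CA12, of the cell surface, fell by 2.93. The alkaline phosphatases ALPG and ALPP, which need zinc loaded by Golgi transporters, were at least 6.72-fold lower and lower by a difference of -2.53, though these near-identical genes may share probes. NT5E, the ectonucleotidase CD73, rose by 1.22 (10.93 ± 0.42 in p16 and 9.72 ± 0.20 in mock samples, adjusted p = 0.016).

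Markers of the labelled cell type moved with the same samples. Of 10 duct and carcinoma markers 8 reached 4 in every p16 sample and 9 in every mock sample, with KRT7, KRT8, KRT18 and EPCAM present in all, CFTR under 4 in all, and CEACAM6 at 3.60 ± 0.02 in p16 and 10.20 ± 0.29 in mock samples. Of the 9 tested, 7 were called lower, where 22.5% of all genes were, and KRT7 and EPCAM were not called. CEACAM6 passed the filter only through its mock values. Besides CEACAM6, the genes called lower were SOX9 (a difference of -5.75), MUC1 (-5.13), KRT19 (-3.86), KRT8 (-2.81), CDH1 (-1.96) and KRT18 (-1.44). With the block 8 were called lower, where 35.5% of all genes were. EPCAM was the gene added by the block (-1.02, limma adjusted p = 0.072 without the block, 0.0018 with it). Summed log2 levels of the 10 lay between 93.1 and 96.8 in p16 samples and 122.2 and 124.6 in mock samples. All 7 acinar and endocrine markers on the array, INS and GCG among them, and all 8 leukocyte and endothelial markers lay under 4 in every sample. Of 8 fibroblast markers, COL1A1 reached 4 in all samples, LUM read 8.92 ± 0.42 in p16 and 2.72 ± 0.02 in mock samples, and COL1A2, COL3A1, DCN, PDGFRA and FAP lay under 4 throughout. PDGFRB read 4.31, 5.65 and 3.71 in p16 samples and 2.71, 2.19 and 2.53 in mock samples, at least 1.47-fold higher, and was not tested. Summed levels of the 8 were 33.8 to 35.6 in p16 and 25.6 to 26.3 in mock samples. That difference lay mostly in LUM and PDGFRB, while COL1A1 differed by -0.13 and was not called. The summed levels of both lists take the highest probe set value of each gene in each sample. The part of these markers in the changes of zinc genes was not tested, and in such bulk samples fewer cells of a type and less RNA per cell cannot be told apart.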

How the data were processed

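Biotin-labelled cRNA from 300 ng of total RNA of 6 samples titled Capan-1 was hybridised to Affymetrix HG-U133 Plus 2.0 arrays. The deposited log2 values are GCRMA output of the authors (the submitters' processing notes name the tool without a version). Low values pile up at a floor, so folds against it are bounds: the brighter group's mean minus the lower group's mean with each value raised to 4. Of 54675 probe sets 62 controls were left out, and the platform annotation held by GEO named a single gene for 41091 others. All 71 member probe sets had a current symbol in RefSeq (GRCh38.p14).

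Probe sets with a log2 value of at least 4 in at least 3 of 6 samples (24406) entered 1 limma 3.58.1 fit in R 4.3.3 (lmFit and eBayes, two-sided), with Benjamini-Hochberg adjustment over all of them and a threshold of 0.05. Each gene is represented by the brightest of its tested probe sets. The fit was checked on simulated data with known changes and independent samples. That check held no link between same-numbered samples and did not cover the fit with a block. Deviations of same-numbered samples from their group means correlated at 0.81, 0.75 and 0.67 across probe sets, all over 0.1, so the V numbers were taken to pair the samples, and the fit with the number as a block is an alternative. V2 and V3 of different groups also correlated (0.42 and 0.51). Deviations from the mean of 3 samples are tied to each other, so a shift of V1 in both groups by itself makes V2 and V3 correlate. The pairing of V2 with V2 and of V3 with V3 is therefore less certain than that of V1. Other filters, normalizations, a trended and robust prior, another probe set per gene and each sample left out were also run. Precision is limited by the few arrays. The named genes are all members, and per other list up to 6 called genes with the largest change; other genes were named after their values were seen. Members and lists were chosen with earlier results of these data known. Tables and figures used Python 3.11.15, pandas 2.3.3, numpy 2.4.6 and matplotlib 3.10.9.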

Additional observations from a re-analysis of the deposited data

How the results depend on the processing

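Pairing moved the counts most. With a replicate block (the V number), 6 member genes were higher and 13 lower, against 2 and 4 without it. Over all genes tested the share called rose from 42.0% to 67.9%. Among member probe sets 12 were higher and 20 lower, against 5 and 8. Over all probe sets tested the share called rose from 37.2% to 63.5%. Of 47 other metal genes tested, 22 were lower with the block, against 14 without it. Of the 47 member probe sets, 19 passed only with the block and none was lost. Without V1 of both groups, an alternative added after the data were seen, 5 member genes were higher and 11 lower, and 11 probe sets were higher and 17 lower. In that fit 58.9% of all genes tested were called, and the share of all probe sets was not counted. Without the low value filter, 1 member gene and 3 probe sets were higher, and 9 other metal genes were lower. With the probe set of largest spread per gene, 1 member gene was higher. Shares over the whole array were not counted without the filter or with the probe set of largest spread. The cause of these shifts was not tested.

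Leaving out 1 sample at a time gave 1 to 4 member genes higher and 3 to 8 lower, 3 to 8 probe sets higher and 5 to 13 lower, and 4 to 6 other metal genes higher and 9 to 14 lower. Shares called over the whole array were not counted for these fits, so the counts cannot be set against them. Both member gene maxima came without mock V1 (4 higher, 8 lower), and 1 gene was higher without p16 V2 or p16 V3. Among probe sets, 8 were higher without p16 V1, 3 without p16 V2 or p16 V3, 13 were lower without mock V1 and 5 without mock V2 or p16 V2. Other metal genes lower numbered 9 without mock V3, p16 V2 or p16 V3. SLC30A4, SLC39A11, SLC39A14 (212110_at), SLC30A1 (212907_at), SLC39A8 (219869_s_at), MT1F (213629_x_at), MT1X (204326_x_at) and SLC39A6 (202089_s_at) kept their calls in every alternative that tested them. The sign turned in some of these fits only for probe sets that were not called: MTF1 205322_s_at (-0.88 to 0.21), SLC30A5 243166_at (-0.10 to 0.23), SLC30A7 239596_at (-0.13 to 0.22) and SLC39A4 (-0.46 to 0.069).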
